A study of Mus musculus with 46 samples.

Results

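The genes described here encode the subunits of the ionotropic and metabotropic glutamate receptors, the GABA-A and GABA-B receptors and the glycine receptors. Members were autosomal genes whose symbol belongs to one of these families and whose mean summed count reached 20 in at least 1 age group. Of 52 such symbols in the annotation, 46 were in the count tables, 6 of these were X-linked and were set aside, and 40 of the 15499 genes in the tables were members. The 40 are 17 ionotropic glutamate receptor genes, 7 metabotropic glutamate receptor genes, 11 GABA-A genes, 2 GABA-B genes and 3 glycine receptor genes. One of the 17 is Grin1os, an antisense RNA that overlaps Grin1 on the other strand, so 39 members encode subunits. No autosomal gene of these families in the tables fell below the minimum, and Gabrr1 came nearest to it, with a mean of 33.1 counts at P5, its highest age. Gabra6, Gabrd, Gabrr2, Gabrr3, Grin3b and Grm6 are not analysed here.

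RNA came from the dorsal raphe nucleus, the midbrain cluster that holds many of the brain's serotonin-producing neurons, of female first-generation hybrids between the C57 and CAST mouse strains. The 2 directions of the cross are named F1i and F1r, and the mother's strain is not named for either. There were 7 F1i and 7 F1r libraries at postnatal day 5 (P5), 7 and 7 at P15, and 9 and 9 from adults whose age is not given. No treatment is named, and adult library names carry 2 numbers whose meaning is not stated, so libraries that share the first number may share an animal. For each library the authors counted reads per gene separately for the C57 and the CAST allele. Levels are the sum of both alleles in CPM, the count relative to all such reads of the library, scaled between libraries by the trimmed mean of M values. Sums of marker lists are in CPM without that scaling. Because only reads that tell the alleles apart were counted, levels are compared between libraries and never between genes.

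Glutamate excites neurons through 4 families of receptor channels, AMPA, NMDA, kainate and delta receptors, and through slower G protein-coupled metabotropic receptors. GABA and glycine inhibit neurons through chloride channels, the GABA-A and glycine receptors, and GABA also acts through the G protein-coupled GABA-B receptor. Subunit choice sets the kinetics, ion selectivity and drug sensitivity of these channels, and in many brain regions it shifts between early postnatal life and adulthood. Serotonin neurons of the dorsal raphe receive both glutamate and GABA inputs and inhibit themselves through other receptors not treated here.

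Summed totals ranged between 3692778 and 13085952 counts per library. Of 7 serotonergic marker genes 6 were in the tables, and their summed level was 383 to 595 CPM at P5, 996 to 1679 CPM at P15 and 1126 to 1588 CPM in adults, while 2 forebrain markers of 6 listed summed to 1.14 to 8.03 CPM in all libraries. The myelin list, 9 of 10 genes, summed to 1827 to 3061 CPM at P5, 18146 to 31826 CPM at P15 and 7558 to 11576 CPM in adults, and the pan-neuronal list, 13 of 14 genes, to 6055 to 6627, 5116 to 5848 and 5739 to 7057 CPM. The immature neuron list, 5 of 6 genes, summed to 5846 to 6711 CPM at P5, 1126 to 1344 at P15 and 876 to 1227 in adults. It shares Tubb3 with the pan-neuronal list, so these lists are not independent. The cerebellar list, 5 of 8 genes, summed to 128 to 149, 91.6 to 112 and 47.3 to 70.4 CPM. The cranial motor neuron list, 5 of 6 genes, summed to 88.9 to 153, 193 to 351 and 169 to 395 CPM. These marker lists moved with age alongside the receptor genes, and their part in the receptor results was not tested. In whole tissue, fewer cells of a type and less RNA per cell cannot be told apart. One adult F1i library, 1_1, stood apart from the other adults on the first principal component, and every call of a member between adults and P15 and between adults and P5 was also made without it.

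The sequence upstream of the start of 4 members on which the results turn is shown first: Grin2d and Grin2c, NMDA receptor subunits that moved in opposite directions with age, Gabra2, which had the greatest allele difference, and Gabra5, whose alleles differed between the crosses. Each is the 250 bases before the RefSeq start on build GRCm38.p6, on the minus strand of chr7:45866682-45866931, chr11:115267244-115267493, chr5:71095850-71096099 and chr7:57510060-57510309 in that order, 5′ to 3′, with CpG dinucleotides in capitals.
Grin2d: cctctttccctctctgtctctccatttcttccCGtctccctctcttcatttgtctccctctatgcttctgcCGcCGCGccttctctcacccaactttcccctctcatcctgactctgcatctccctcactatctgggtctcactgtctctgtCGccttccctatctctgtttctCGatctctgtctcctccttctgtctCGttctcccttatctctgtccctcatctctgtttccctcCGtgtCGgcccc
Grin2c: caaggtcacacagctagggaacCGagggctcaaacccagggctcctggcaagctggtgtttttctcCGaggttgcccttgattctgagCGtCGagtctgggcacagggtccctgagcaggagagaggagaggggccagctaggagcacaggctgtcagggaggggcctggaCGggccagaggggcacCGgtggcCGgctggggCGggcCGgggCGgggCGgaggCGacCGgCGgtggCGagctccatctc
Gabra2: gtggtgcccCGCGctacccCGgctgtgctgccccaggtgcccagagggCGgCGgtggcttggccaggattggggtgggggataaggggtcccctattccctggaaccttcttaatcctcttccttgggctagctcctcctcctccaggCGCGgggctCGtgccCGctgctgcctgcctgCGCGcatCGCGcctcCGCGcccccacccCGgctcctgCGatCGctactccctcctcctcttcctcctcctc
Gabra5: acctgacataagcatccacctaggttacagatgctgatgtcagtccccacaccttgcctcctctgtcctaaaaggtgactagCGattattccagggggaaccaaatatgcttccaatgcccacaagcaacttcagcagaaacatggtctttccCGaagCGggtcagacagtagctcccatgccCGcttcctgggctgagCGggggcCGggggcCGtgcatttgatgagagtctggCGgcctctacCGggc
Grin2d and Gabra5 each held 9 CpG dinucleotides, Grin2c 15 and Gabra2 18, against a median of 15.5 in the 26 members with an upstream sequence and 6 in all 27025 upstream sequences. As many as 9 were found in 40.7% of all sequences, 15 or more in 27.5% and 18 or more in 21.6%. The GC box GGGCGG, which itself holds a CpG, was present on either strand in Grin2c and Gabra2, in 17 of the 26 members and in 32.9% of all sequences. TATAAA occurred in 1 member and 13% of all sequences, CACGTG in 1 member and 6.05%, and TGACGTCA in 0 members and 1.62%.

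Receptor genes were mostly lower at P15 than at P5. Between P15 and P5, 37 of the 40 members passed the test (edgeR quasi-likelihood, adjusted p below 0.05 over all genes tested), where 83.4% of 13637 genes did. Of the members 12 were higher and 25 lower at P15, shares of 30.0% and 62.5%, where 42.5% and 40.9% of all genes were higher and lower. A change of 1 log2 unit or more was called in 3 members upward (8.45% of all genes) and in 10 members downward (10.6%). The median log2 change was −0.55 in the members and 0.02 in all genes tested. The lowest and highest libraries of P15 and P5 did not overlap for 7 members that were higher (19.8% of all genes) and 20 that were lower (21.3%).

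Between adults and P15 changes were fewer and smaller: 30 members passed the test (74.7% of all genes), 18 higher and 12 lower in adults (37.0% and 37.7%), with a median log2 change of 0.02 against −0.01 in all genes. Scaled to the pan-neuronal list, which lowered the median of all genes in this contrast, 7 members were higher and 24 lower. With a GC correction 20 were higher and 7 lower. The shares of all genes under both settings are not given, so these counts are not read as particular to the receptor genes. A change of 1 log2 unit or more was called in 2 members upward (2.48% of all genes) and in 0 downward (2.88%). Non-overlapping ranges were found for 4 members that were higher (6.50%) and 0 that were lower (5.67%). Between adults and P5, 36 members passed (82.1% of all genes), 12 higher and 24 lower (40.6% and 41.5%), with a median of −0.41 against 0.00 in all genes, and 6 higher (19.0%) and 17 lower (20.6%) with ranges that did not overlap. Both contrasts share libraries with the first, so they are not independent of it.

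**Figure D1:**
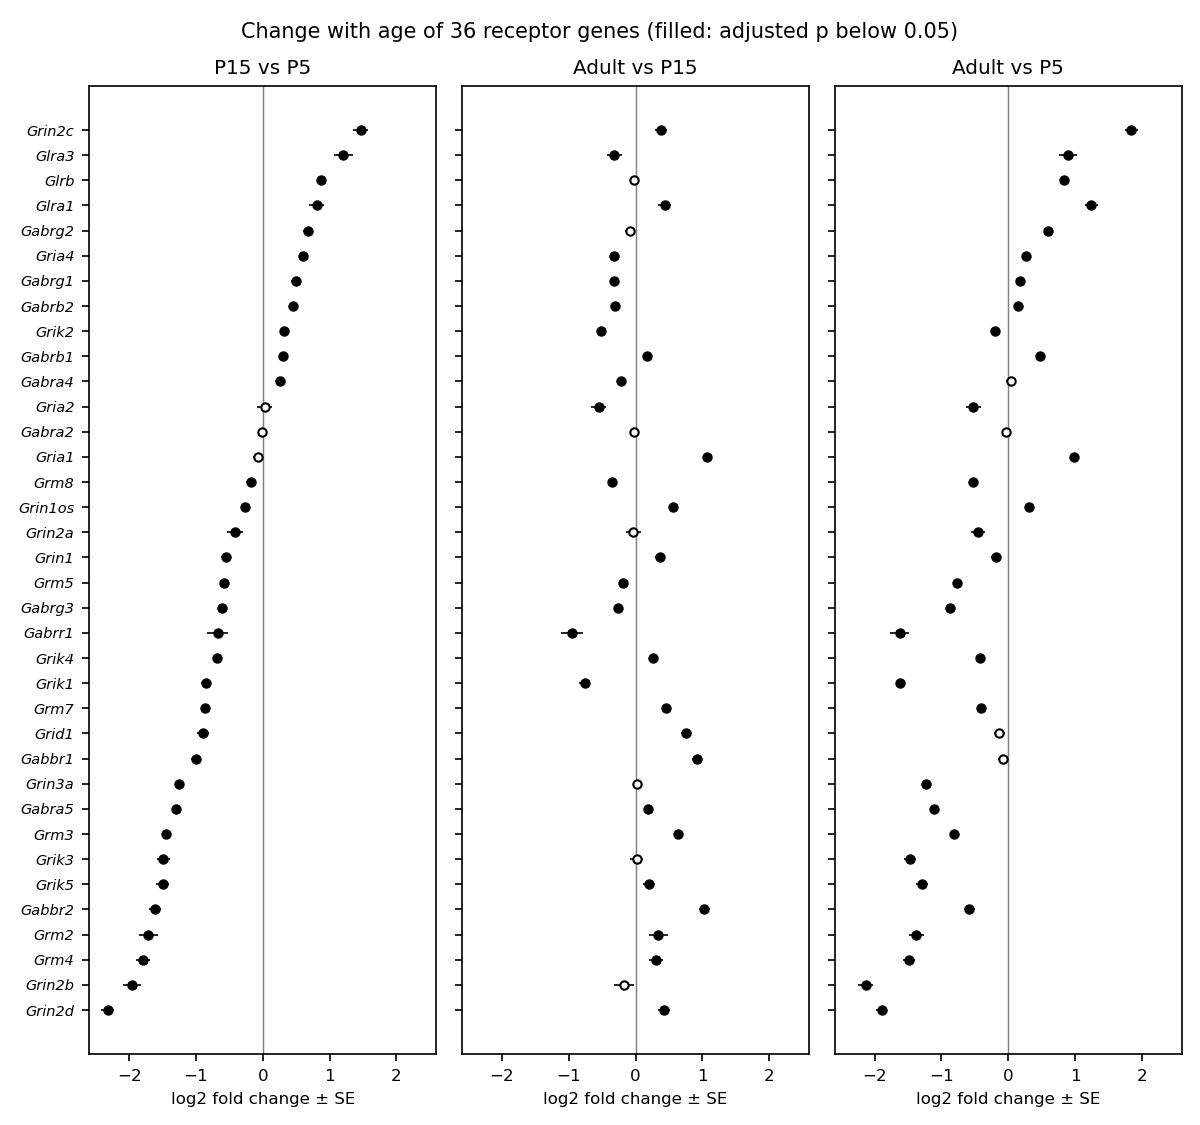
Log2 fold change of each of 36 receptor genes between P15 and P5, adults and P15, and adults and P5, with the standard error; filled points have an adjusted p below 0.05 (edgeR quasi-likelihood test). Genes are ordered by the first contrast, in which 22 filled points lie left of 0 and 11 right of it.

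Of 7 NMDA receptor genes 1 was higher and 6 lower at P15 than at P5, where 42.5% and 40.9% of all genes were higher and lower. Of the 6, Grin1 (0.07) and Grin1os (0.07) turned positive, without a call, when each library's GC trend was removed. The Grin2 genes encode the glutamate-binding subunits, and GluN2B and GluN2D are known from other brain regions as the early postnatal forms. Grin2d had 60.5, 79.0 and 84.3 CPM (lowest, median and highest library) at P5, 9.68, 14.4 and 24.6 CPM at P15, and 15.3, 20.4 and 27.4 CPM in adults. All P5 libraries lay above all later ones, and P15 and adult libraries overlapped. The log2 change was −2.32 ± 0.09 (SE) between P15 and P5, a 5-fold drop (adjusted p = 6.51e-28), and 0.43 ± 0.09 between adults and P15. With the GC correction the first change was −1.29, and scaled to the pan-neuronal list the second was 0.11 (adjusted p = 0.256). Grin2d overlaps Kdelr1 on the other strand, and whether its counts hold reads of that gene cannot be told.

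Grin2b had 15.8, 19.8 and 22.3 CPM at P5, 2.65, 4.22 and 11.6 CPM at P15, and 2.03, 4.47 and 6.91 CPM in adults. The P5 libraries again stood wholly above both later ages, which overlapped each other, and the F1i P15 library 2 gave the highest P15 value. Grin2b fell 3.88-fold between P15 and P5 (log2 −1.96 ± 0.13, adjusted p = 1.04e-18), and its log2 change between adults and P15 was −0.17 ± 0.15 (adjusted p = 0.279). That Grin2d passed the test between adults and P15 while Grin2b did not is no test of a difference between them, which was not made.

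Grin2c moved the other way. It had 4.65, 5.96 and 7.66 CPM at P5, 10.2, 16.5 and 26.1 CPM at P15, and 14.9, 22.3 and 29.0 CPM in adults. All later libraries were above all P5 libraries, and P15 overlapped with adults. The change was 2.76-fold between P15 and P5 (log2 1.46 ± 0.11, adjusted p = 1.3e-16; 2.29 with the GC correction) and 3.59-fold between adults and P5 (adjusted p = 2.91e-22).

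Grin2a, which replaces Grin2b in the maturing forebrain, was not higher at later ages here: it had 6.74, 7.94 and 10.8 CPM at P5, 4.33, 5.83 and 8.59 CPM at P15, and 3.85, 6.46 and 9.57 CPM in adults. The 3 ranges overlapped, and Grin2a was lower at P15 than at P5 (log2 −0.42 ± 0.12, adjusted p = 0.00132). Scaled to the pan-neuronal list this change was −0.18 and did not pass (adjusted p = 0.139), and with the GC correction it was −0.67. The log2 ratio of Grin2a to Grin2b counts within a library nevertheless had medians of −1.30, 0.44 and 0.50 at the 3 ages, and that of Grin2c to Grin2b −1.64, 1.72 and 2.30. The P5 range of the second ratio, −2.19 to −1.30, lay apart from the later ones (1.16 to 2.49 and 1.62 to 3.27), whereas 1 P15 library at −1.03 brought the first ratio within the P5 range of −1.56 to −0.71. Such ratios depend on how many informative positions each gene has, so their change with age is read and not their level.

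Grin3a encodes a glycine-binding subunit that lowers the calcium permeability of NMDA receptors. It had 138, 154 and 172 CPM at P5, 54.4, 63.9 and 73.5 CPM at P15, and 55.0, 64.9 and 72.9 CPM in adults, so that P5 stood apart and the later ages were nearly the same range. The fold was 2.39 lower at P15 than at P5 (log2 −1.26 ± 0.05, adjusted p = 6.15e-30), and the log2 change between adults and P15 was 0.02 ± 0.04. Grin1, the subunit that every NMDA receptor contains, ran from 125 to 149 CPM at P5, 68.9 to 132 CPM at P15 and 79.2 to 144 CPM in adults. Its log2 change of −0.18 between adults and P5 became 0.22 with the GC correction. Whether counting used strand is not given, and reads of Grin1 and of Grin1os cannot be told apart.

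**Figure D2:**
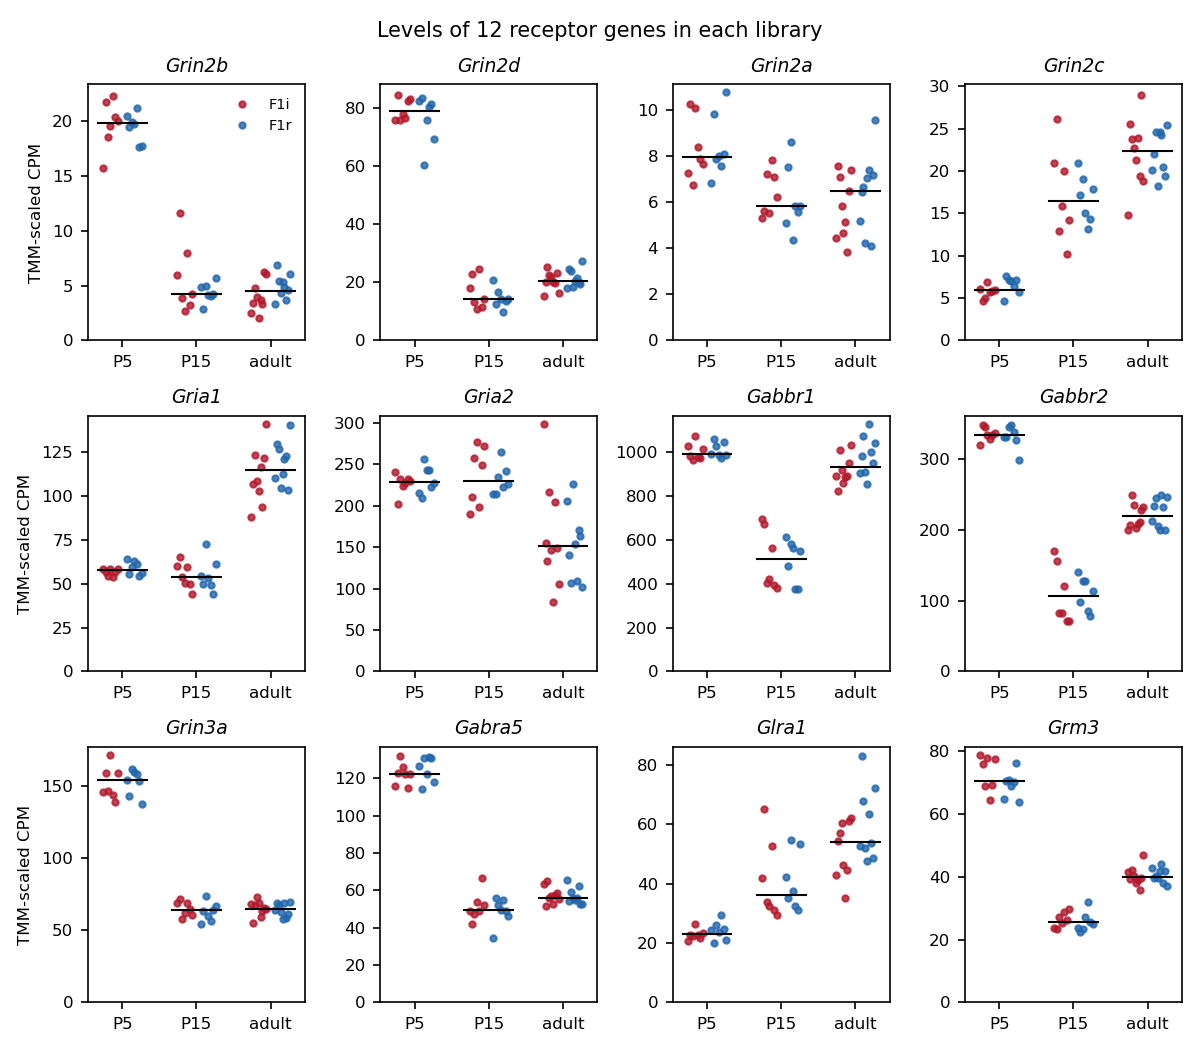
Level of 12 receptor genes in each library in TMM-scaled CPM on a linear axis from 0, by age, with F1i in red and F1r in blue; black lines are medians over both crosses. Grin2b, Grin2d and Gabra5 are highest at P5, Gabbr1, Gabbr2 and Grm3 are lowest at P15, Gria1 is highest in adults, and adult Gria2 values spread between 84.2 and 298 CPM.

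Gria1, an AMPA receptor gene, changed after P15. It had 54.1, 57.7 and 64.0 CPM at P5, 43.9, 53.7 and 72.9 CPM at P15, and 88.1, 115 and 141 CPM in adults. The 2 early ages overlapped, and every adult library was above every earlier one. Gria1 was 2.10-fold higher in adults than at P15 (log2 1.07 ± 0.06, adjusted p = 3.79e-21), and its log2 change between P15 and P5 was −0.08 ± 0.07 (adjusted p = 0.261). Gria4, an AMPA subunit with fast kinetics, had 109 to 138 CPM at P5, 149 to 214 CPM at P15 and 125 to 200 CPM in adults; it was higher at P15 than at P5 (log2 0.60 ± 0.06, adjusted p = 1.3e-12) and lower in adults than at P15 (−0.33 ± 0.06). The first change was 0.33 with the GC correction, and the second was −0.10 (adjusted p = 0.133) with adults of second number 1 alone and −0.16 with the GC correction.

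Gria2 encodes the subunit that makes AMPA receptors nearly impermeable to calcium. It is given here outside the rule for named genes, because of its spread, which was noticed after its values were seen. Gria2 had 202, 229 and 257 CPM at P5, 190, 230 and 277 CPM at P15, and 84.2, 151 and 298 CPM in adults. The early ranges almost coincided, while adult libraries reached both below and above them. The log2 change between adults and P15 was −0.55 ± 0.11 (adjusted p = 1.17e-05) and that between P15 and P5 was 0.03 ± 0.12 (adjusted p = 0.814).

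The adult spread of Gria2 followed the second number in the library name. The 6 libraries with second number 1 had 171 to 298 CPM, the 6 with number 2 had 141 to 163 CPM, and the 6 with number 3 had 84.2 to 134 CPM. Each number held 3 F1i and 3 F1r libraries, and the 3 ranges did not touch. Of 13637 genes 9 showed 3 ranges apart in this way, 0.066%, and Gria2 was 1 of 40 members. The CAST share of Gria2 counts was 47.3 to 51.3% for number 1, 45.2 to 48.4% for number 2 and 49.6 to 52.6% for number 3. Set against all P15 libraries, the adult log2 change of Gria2 was −0.09 (adjusted p = 0.288) with number 1 alone, −0.62 with number 2 and −1.11 with number 3. The labels do not say what the second number stands for, and its part in the adult change was not tested. The log2 ratio of Gria1 to Gria2 counts accordingly ranged between −2.11 and −1.75 at P5, −2.61 and −1.66 at P15 and −1.76 and 0.47 in adults, with medians of −1.997, −2.14 and −0.46.

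The kainate receptor genes were mostly lower after P5: 4 of the 5 at P15 (40.9% of all genes) and all 5 in adults (41.5%). With adults of second number 1 alone, the change of Grik2 between adults and P5 was −0.08 and did not pass (adjusted p = 0.24). The exception at P15 was Grik2 (log2 0.32 ± 0.05, but −0.15, also called, with the GC correction). Grik3 encodes a low-affinity subunit. It had 304, 329 and 358 CPM at P5, 80.4, 109 and 185 CPM at P15, and 93.0, 116 and 149 CPM in adults. P5 stood apart from both later ages, which overlapped, and the fold between P15 and P5 was 2.81 (log2 −1.49 ± 0.10, adjusted p = 4.14e-19). Grik5, which encodes a high-affinity subunit that forms channels only with other kainate subunits, had 196, 219 and 232 CPM at P5, 52.8, 75.7 and 118 CPM at P15, and 47.9, 92.2 and 111 CPM in adults. It showed the same separation and was 2.82-fold lower at P15 than at P5 (log2 −1.50 ± 0.10, adjusted p = 1.11e-19; −0.71 with the GC correction).

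Grik1 was lower at each later age. It had 18.0, 21.3 and 26.2 CPM at P5, 8.46, 12.03 and 14.9 CPM at P15, and 4.97, 7.06 and 8.92 CPM in adults. The P5 libraries lay above all others, and the highest adult library overlapped with the lowest P15 library. The log2 changes were −0.85 ± 0.08 between P15 and P5, −0.76 ± 0.08 between adults and P15, and −1.61 ± 0.07 between adults and P5 (adjusted p = 2.3e-26), a 3.06-fold drop. Grid1, a delta receptor gene whose product binds cerebellins across the synapse, was lower at P15 than at P5 (log2 −0.89 ± 0.09). Grid1 was higher again in adults than at P15 (0.76 ± 0.08, adjusted p = 1.15e-11; 0.44 when scaled to the pan-neuronal list), at 80.5 to 111 CPM against 38.5 to 88.1 CPM.

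All 7 metabotropic glutamate receptor genes were lower at P15 than at P5 (40.9% of all genes), and all 7 were lower in adults than at P5 (41.5%). Scaled to the pan-neuronal list, Grm8 turned to 0.06 in the first contrast without a call. In the second contrast 1 of the 7 lost the call under some alternatives. The group II genes Grm2 and Grm3, whose receptors inhibit adenylyl cyclase, were among the most changed. Grm3 had 64.0, 70.5 and 78.8 CPM at P5, 22.4, 25.5 and 32.0 CPM at P15, and 36.0, 40 and 47.1 CPM in adults. The 3 ranges did not touch, with P15 the lowest and adults between. Grm3 was 2.74-fold lower at P15 than at P5 (log2 −1.45 ± 0.05, adjusted p = 1.84e-31) and higher in adults than at P15 (0.64 ± 0.05, adjusted p = 2.38e-17; 0.32 when scaled to the pan-neuronal list).

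Grm2 had 13.8, 18.6 and 24.2 CPM at P5, 2.45, 5.74 and 8.99 CPM at P15, and 4.06, 7.52 and 11.02 CPM in adults. Its P15 values rest on a mean of 31.3 reads per library. P5 stood above the other ages, which overlapped; the fold between P15 and P5 was 3.28 (log2 −1.71 ± 0.14, adjusted p = 6.64e-16). Grm4, a group III receptor found at presynaptic terminals, had 55.8, 66.4 and 76.1 CPM at P5, 13.2, 17.7 and 34.9 CPM at P15, and 14.6, 25.5 and 31.7 CPM in adults. The pattern was that of Grm2, with a 3.47-fold difference between P15 and P5 (log2 −1.80 ± 0.10, adjusted p = 1.63e-21; −1.002 with the GC correction). Grm5 of group I and Grm7 and Grm8 of group III had log2 changes of −0.58 ± 0.05, −0.86 ± 0.06 and −0.18 ± 0.07 between P15 and P5. That of Grm5 was −0.34 when scaled to the pan-neuronal list and −0.92 with the GC correction, which gave −0.54 for Grm8. Grm7 overlaps Gm20387 on the other strand, and whether its counts hold reads of that gene cannot be told.

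Of 11 GABA-A genes 6 were higher and 4 lower at P15 than at P5, where 42.5% and 40.9% of all genes were higher and lower. Of the 6, 3 turned negative without a call under the GC correction: Gabra4, Gabrb1 and Gabrg1.

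Gabra5, whose subunit forms mainly extrasynaptic receptors, had 114, 123 and 132 CPM at P5, 34.3, 49.4 and 66.4 CPM at P15, and 51.8, 56.1 and 65.5 CPM in adults. P5 stood apart and the adult range lay within that of P15. Gabra5 was 2.47-fold lower at P15 than at P5 (log2 −1.30 ± 0.05, adjusted p = 1.39e-27).

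Gabra2 passed the test in no age contrast: its libraries spanned 56.3 to 68.1 CPM at P5, 55.0 to 69.8 CPM at P15 and 52.5 to 69.8 CPM in adults, and its log2 changes were within 0.04 of 0 in each contrast (adjusted p = 0.733, 0.65 and 0.39). Gabrr1, which encodes the rho subunit best known from retina, was counted with only 4 to 42 reads per library. It had 3.94, 5.59 and 6.99 CPM at P5, 1.72, 3.41 and 5.98 CPM at P15, and 0.55, 1.86 and 3.25 CPM in adults. P5 and P15 overlapped, as did P15 and adults, but adults and P5 did not, with a log2 change of −1.63 ± 0.15 between them (adjusted p = 1.87e-14).

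**Figure D3:**
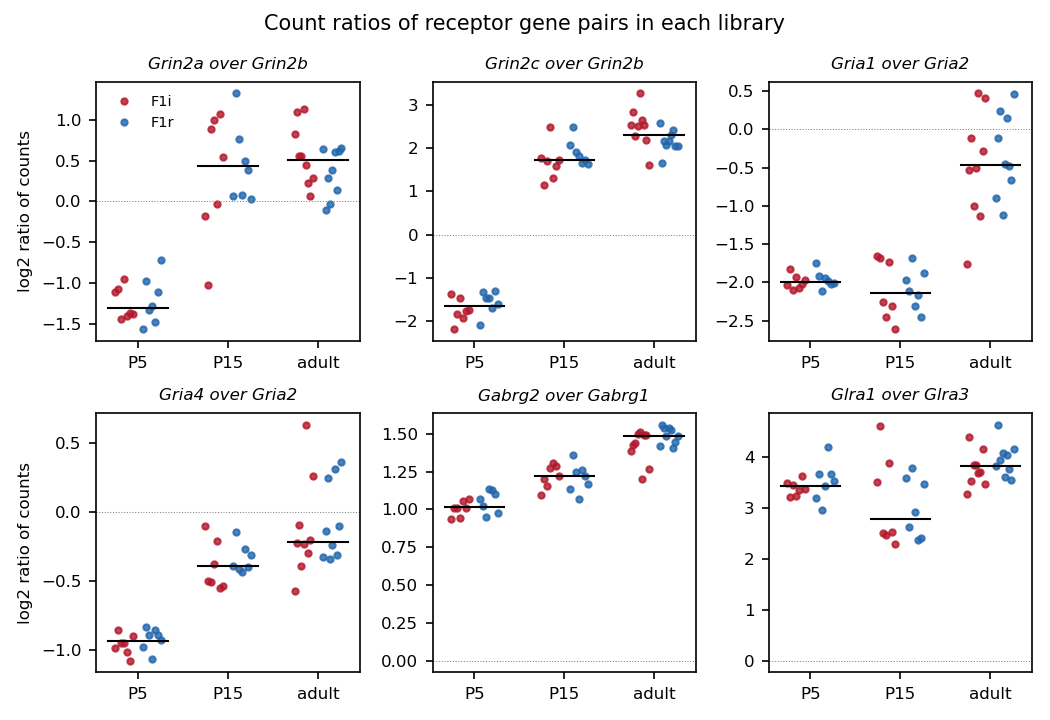
Log2 ratio of the summed counts of 6 pairs of receptor genes in each library (prior count of 1), by age, with F1i in red and F1r in blue; black lines are medians and dotted lines mark a ratio of 1. Grin2c over Grin2b separates P5 from both later ages, and Gria1 over Gria2 spreads most in adults (−1.76 to 0.47).

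The 2 GABA-B genes, whose products form an obligate pair, fell and rose together. Gabbr2 had 299, 334 and 347 CPM at P5, 70.6, 106 and 170 CPM at P15, and 199, 220 and 249 CPM in adults. The 3 ages did not overlap, with P15 lowest. The log2 change was −1.62 ± 0.09 between P15 and P5 (3.06-fold lower, adjusted p = 6.78e-22) and 1.03 ± 0.09 between adults and P15 (2.04-fold higher, adjusted p = 4.17e-15). Gabbr1 had 967 to 1074 CPM at P5, 376 to 697 CPM at P15 and 825 to 1131 CPM in adults, with log2 changes of −0.996 ± 0.073 and 0.91 ± 0.07, the second 0.60 when scaled to the pan-neuronal list. Adult and P5 libraries of Gabbr1 overlapped, and their log2 change was −0.08 ± 0.07 (adjusted p = 0.257).

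All 3 glycine receptor members were higher at P15 than at P5 (42.5% of all genes) and in adults than at P5 (40.6%). The X-linked glycine receptor genes Glra2 and Glra4 were set aside, so this does not cover the whole family. Glra1, the main alpha subunit of adult brainstem and spinal cord, had 19.95, 23.02 and 29.3 CPM at P5, 29.5, 36.2 and 65.0 CPM at P15, and 35.2, 54.0 and 82.9 CPM in adults. The P5 libraries were below all others, by a narrow gap at P15. Glra1 was 2.37-fold higher in adults than at P5 (log2 1.24 ± 0.10, adjusted p = 7.61e-16). Glra3 rests on 8 to 22 reads per P5 library and had 1.43, 1.96 and 3.22 CPM at P5, 2.48, 5.03 and 6.20 CPM at P15, and 2.47, 3.81 and 5.58 CPM in adults. The 3 ranges overlapped; it was 2.31-fold higher at P15 than at P5 (log2 1.21 ± 0.14, adjusted p = 1.06e-10), and 0.69 on the log2 scale with the GC correction.

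Glrb, the beta subunit that anchors the receptor to gephyrin, had 200 to 250 CPM at P5, 332 to 470 CPM at P15 and 348 to 515 CPM in adults. P5 stood apart from the later ages (log2 0.87 ± 0.05 between P15 and P5, adjusted p = 1.77e-20; 0.47 with the GC correction), and the change between adults and P15 was −0.03 ± 0.05.

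All 13 members called with a change of 1 log2 unit or more between P15 and P5, both between adults and P15 and all 13 between adults and P5 were called in the same direction under every alternative run. Smaller changes were less stable, and transcript GC content moved with them. Over all genes tested, the median log2 change between P15 and P5 was 0.36 in the fifth of genes with the lowest GC content and −0.54 in the fifth with the highest. The 20 members of lower GC content had a median of 0.14 and the 20 of higher GC content −0.87, and after the correction these were −0.30 and −0.85. Scaling to the pan-neuronal list shifted the median of all genes to 0.27 between P15 and P5 and to −0.32 between adults and P15, so the log2 values above are relative to the bulk of genes.

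Genes that act around the receptors were counted in 6 lists, beside which 42.5% of all genes were higher and 40.9% lower at P15 than at P5, and 37.0% were higher and 37.7% lower in adults than at P15. Their values under the GC correction and pan-neuronal scaling, which moved several receptor changes, are not given here. Of 14 genes for AMPA receptor auxiliary proteins, 0 were higher and 13 lower at P15 than at P5, with a median log2 change of −1.01 against 0.02 in all genes; 7 were higher and 2 lower in adults than at P15. Nptx2 and Nptxr, pentraxins that cluster AMPA receptors, fell by 2.29 ± 0.09 and 2.20 ± 0.12 on the log2 scale between P15 and P5, and Gsg1l, an AMPA receptor auxiliary subunit, fell by 1.92 ± 0.08 (adjusted p = 1.6e-27, 1.29e-22 and 3.23e-27). Nptxr had 1360 to 1527 CPM at P5, 174 to 533 CPM at P15 and 417 to 642 CPM in adults, so P15 libraries were below all P5 libraries. Neto1, a kainate receptor auxiliary subunit, was lower at P15 than at P5 (log2 −0.73 ± 0.09), and both Neto genes were lower in adults than at P5.

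Among 17 scaffold genes of excitatory synapses 2 were higher and 14 lower at P15 than at P5 (median −0.83, against 0.02 in all genes). Dlg1, a relative of PSD-95, was one of the 2 (log2 1.04 ± 0.05, adjusted p = 7.53e-25), at 34.4 to 47.9 CPM at P15 against 16.4 to 22.5 CPM at P5. Grip1, which binds AMPA receptor tails, was lower (−1.32 ± 0.05, adjusted p = 2.02e-28). Dlg4, which encodes PSD-95 itself, was higher in adults than at P15 (0.84 ± 0.09, adjusted p = 1.79e-11). Its libraries had 123 to 147 CPM at P5, 49.4 to 119 CPM at P15 and 93.8 to 164 CPM in adults, which overlapped with P5. Among 8 scaffold genes of inhibitory synapses 2 were higher and 5 lower at P15 than at P5 (median −0.48), where 83.4% of all genes passed the test in either direction. They included Nlgn2, the neuroligin of inhibitory synapses (−1.52 ± 0.11, adjusted p = 4.12e-18), and Gabarapl1, a GABARAP relative also active in autophagy, which was higher (0.70 ± 0.04).

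Of 13 genes for transmitter synthesis and transport 5 were higher and 3 lower at P15 than at P5, 8 of 13 where 83.4% of all genes passed. Slc1a2, the astrocyte glutamate transporter, was the most changed (log2 1.47 ± 0.07, adjusted p = 7.34e-24), and the astrocyte list as a whole, which contains it, summed to 7809 to 9541 CPM at P15 against 3552 to 4116 CPM at P5. The 2 chloride cotransporter genes moved oppositely. Slc12a5, which encodes the chloride exporter KCC2, had 199 to 482 CPM at P15 against 695 to 786 CPM at P5 (−1.26 ± 0.10, adjusted p = 1.07e-15), and 365 to 678 CPM in adults. Slc12a2, which encodes the importer NKCC1, had 84.1 to 119 CPM at P15 against 49.8 to 62.4 CPM at P5 (0.79 ± 0.06, adjusted p = 4.68e-17).

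Few summed receptor levels passed the test between the reciprocal crosses. At P5 1 of 40 members passed the test between F1i and F1r (1.17% of all genes), at P15 0 (0.0467%) and in adults 0 (0.111%). Higher and lower in F1i were 0.495% and 0.673% of all genes at P5, 0.0389% and 0.00778% at P15, and 0.0962% and 0.0148% in adults. At an unadjusted p below 0.05 there were 7, 0 and 0 members, beside 1291 of 12919, 235 of 12850 and 1244 of 13516 genes. DESeq2 called 0 members at each age. The 1 member was Glrb, with 200, 224 and 235 CPM in F1i and 224, 240 and 250 CPM in F1r at P5 (lowest, median and highest). The ranges overlapped, the log2 difference was −0.13 ± 0.03 (adjusted p = 0.0475), and it did not pass with DESeq2 or with the GC correction. The myelin list also differed between the crosses at P5, at 1827 to 2169 CPM in F1i and 2453 to 3061 CPM in F1r without overlap, and its part in the Glrb difference was not tested. No member changed with age differently in the 2 crosses by edgeR (0.0147%, 0.0367% and 0.0% of all genes), and 0 members with DESeq2. At an unadjusted p below 0.05 there were 0, 1 and 1 members, beside 341, 840 and 574 of 13637 genes.

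Alleles were compared within each library as the log2 ratio of CAST to C57 counts, averaged over both crosses. Of 39 members tested at each age, 22 differed between alleles at P5 (57% of autosomal genes), 21 at P15 (57.1%) and 22 in adults (66.8%). At P5 CAST was higher in 14 and C57 in 8 (29.2% and 27.8%), at P15 in 9 and 12 (28.8% and 28.3%), and in adults in 7 and 15 (33.7% and 33.1%). Most differences were small: an allele difference of 0.5 log2 units or more was called in 4, 1 and 1 members, or 10.3%, 2.56% and 2.56%, where 11.4%, 12.9% and 12.9% of autosomal genes had one. The median size was 0.09, 0.14 and 0.08 log2 units in the members, and 0.15, 0.16 and 0.15 in all autosomal genes tested.

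Gabra2 was the 1 member with a mean difference of 0.5 or more called at every age. Its CAST share was 74.3, 77.6 and 81.7% at P5 (lowest, median and highest of 14 libraries), 66.6, 72.8 and 79.8% at P15, and 69.1, 73.1 and 77.1% in adults. All 46 libraries were above 50%, in both crosses, on 261 to 843 reads each. The log2 CAST over C57 ratio was 1.83 ± 0.04 at P5 (adjusted p = 7.41e-37), 1.46 ± 0.05 at P15 (1.17e-28) and 1.43 ± 0.03 in adults (2.48e-30).

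Of 38 members tested at all 3 ages, CAST was higher at every age in 6 (18.7% of autosomal genes) and C57 in 5 (18.3%), and 8 differed at no age (17.4%). Beside Gabra2 the 6 were Gabrg1, Gabrg3, Grid1, Grin2a and Grin1os, with ratios between 0.09 and 0.46, and the 5 with higher C57 counts were Gabbr1, Gabrb2, Grik5, Grm3 and Grm5, with ratios between −0.44 and −0.05. With DESeq2 the calls of Grin1os at P5 (adjusted p = 0.254), Grik5 at P5 (0.322) and Grin2a at P15 (0.0565) were lost, and with limma that of Gabrb2 at P15 (0.0818). Gabra2 and Gabrg1 lie together on chromosome 5 with Gabra4 and Gabrb1.

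**Figure D4:**
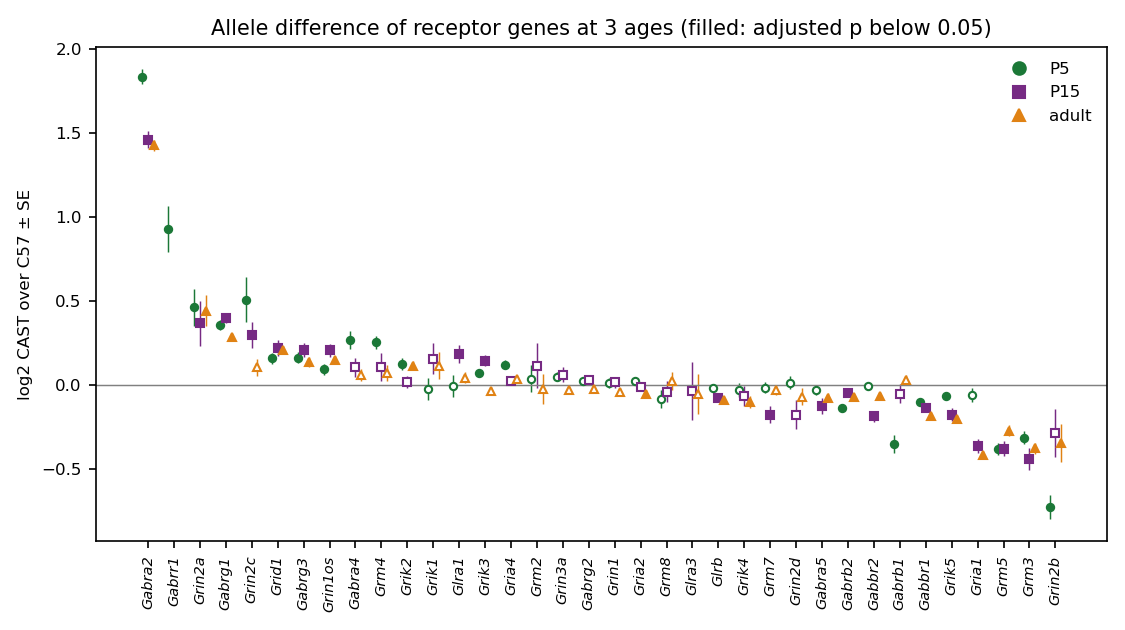
Log2 ratio of CAST to C57 counts of 36 receptor genes at P5, P15 and in adults with the standard error; filled symbols have an adjusted p below 0.05 (edgeR quasi-likelihood test), and ages at which a gene was not tested are left out. Gabra2 stands alone at 1.43 to 1.83, and most other genes lie within 0.5 of 0.

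The allele difference itself changed with age in some members. Between P15 and P5 the change passed the test in 9 of 40 members (19.3% of autosomal genes), and between adults and P15 in 4 (16%). Gria1 had CAST shares of 45.0, 49.3 and 52.6% at P5, 38.4, 44.0 and 47.0% at P15, and 39.5, 42.8 and 46.2% in adults. P5 overlapped with both later ages, whose shares were mostly below it, and adults and P15 shared most of their range. The log2 ratio changed by −0.30 ± 0.06 between P15 and P5 (adjusted p = 2.9e-05). The CAST over C57 log2 ratio of Gria1 was −0.06 ± 0.04 at P5 (adjusted p = 0.187), −0.37 ± 0.04 at P15 and −0.42 ± 0.02 in adults (adjusted p = 9.47e-19).

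Gabrb1 changed in the other direction. Its CAST share was 37.4, 44.1 and 48.4% at P5, 42.8, 48.6 and 56.5% at P15, and 46.2, 50.5 and 53.9% in adults, with overlapping ranges, and the change between P15 and P5 was 0.30 ± 0.07 (adjusted p = 0.00143). Gabrb1 overlaps Gabra4 on the other strand, and whether its counts hold reads of that gene cannot be told. Gabra2 also had a lower CAST ratio at P15 than at P5, with a change of −0.37 ± 0.07. Smaller changes between P15 and P5 were found for Gabrb2 (0.09) upward, and for Gabbr2 (−0.18), Grik5 (−0.11) and Gria4 (−0.10) downward; with DESeq2 those of Grik5 and Gria4 did not pass (adjusted p = 0.107 and 0.0953). Between adults and P15 the ratio changed by 0.12 in Gabbr2, −0.12 in Gabrg1 and −0.18 in Grik3.

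A difference of the allele ratio between the crosses is how expression by parent of origin would appear. It passed the test in 1 of 39 members at P5 (0.831% of autosomal genes), in 0 at P15 (0.607%) and in 1 in adults (0.903%). At P15, 7 members and 551 of 11362 autosomal genes had an unadjusted p below 0.05, and DESeq2 called 0 members. The member called at P5 and in adults was Gabra5 in both cases, on chromosome 7. At P5 its CAST share was 42.7, 46.02 and 46.8% in F1i and 52.0, 52.9 and 54.7% in F1r (lowest, median and highest of 7 each), on 586 to 1244 reads. In adults it was 41.9, 45.9 and 46.8% in F1i and 49.9, 52.4 and 54.5% in F1r (9 each). In neither age did the crosses overlap. At P15, on 155 to 393 reads, it was 37.3, 44.8 and 49.8% in F1i and 48.6, 49.3 and 58.7% in F1r, and the ranges overlapped.

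**Figure D5:**
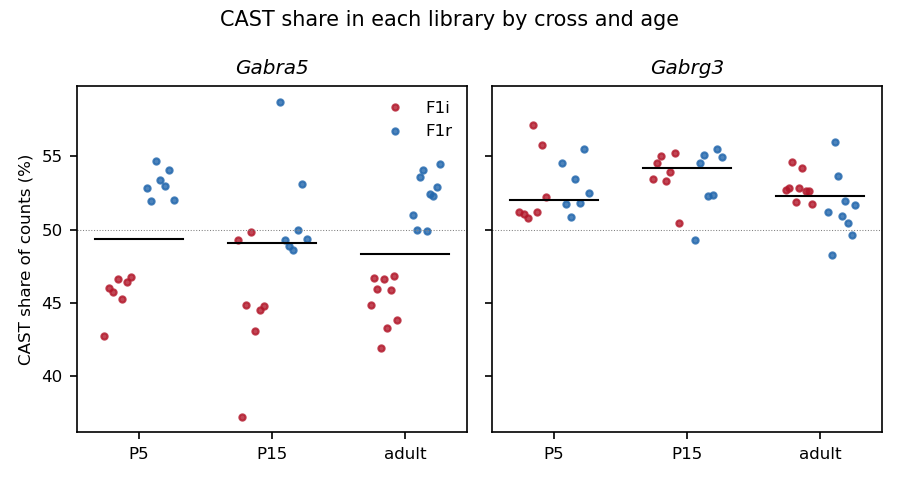
CAST share of the counts of Gabra5 and Gabrg3 in each library in percent, by age, with F1i (red) left of F1r (blue); black lines are medians over both crosses and the dotted line marks 50%. For Gabra5 all F1i libraries lie below all F1r libraries at P5 and in adults, while the crosses overlap for Gabrg3.

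The parental effect of Gabra5, which is the log2 allele ratio of F1i minus that of F1r, divided by 2, was −0.21 ± 0.03 at P5 (adjusted p = 5.03e-08), −0.17 ± 0.05 at P15 (adjusted p = 0.172, unadjusted p = 0.00171) and −0.22 ± 0.03 in adults (adjusted p = 3.43e-07). It held under each alternative run at P5 and in adults, with an adjusted p of at most 0.0167. Neither cross was near silencing of one allele, and its summed level did not differ between crosses by the test (log2 −0.03 ± 0.04 at P5, adjusted p = 0.849). Gabrg3, which lies near Gabra5 on chromosome 7, had parental effects of −0.01 ± 0.03, −0.00 ± 0.04 and 0.03 ± 0.03, none of which passed the test (adjusted p = 0.918 to 1). Whether Gabra5 counts hold reads of the opposite strand cannot be told.

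The spread of allele shares between libraries beyond counting error was tested in 38, 37 and 37 members. By the one-sided chi-square test 0 members passed at any age (0.0748%, 0.622% and 0.132% of autosomal genes), and 0 with a second random seed. At an unadjusted p below 0.05 there were 2, 4 and 1 members, beside 668 of 10699, 856 of 10770 and 804 of 10620 autosomal genes. The median dispersion was 1.003, 0.919 and 1.03 in the members, where 1 is counting error alone, and 0.978, 1.005 and 1.009 in all autosomal genes tested.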

How the data were processed

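Per the labels, RNA of 46 female dorsal raphe samples was extracted with a Qiagen kit, and libraries were made with Illumina TruSeq and sequenced as 50-base single reads. Per the submitters' processing notes, Novoalign and build mm9 were used; how reads were assigned to alleles, and whether by strand, is not given in the sources used here. The deposited tables hold whole-number counts per gene and allele, made by the authors, for 15499 genes. Symbols came from GENCODE by Ensembl ID, and upstream sequences from RefSeq.

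Totals (sums of both alleles) were scaled with TMM and tested with edgeR 4.0.16 (quasi-likelihood; R 4.3.3) in 1 fit of 6 groups of cross and age; crosses were also compared at each age alone. Allele counts were fitted at each age with a term per sample for genes, X-linked ones included, whose summed count averaged at least 20. Shares of genes called in the allele tests are given over the autosomal ones. P-values were Benjamini-Hochberg adjusted over all genes tested, with a threshold of 0.05. The spread of allele shares used libraries thinned to 3692778 counts. Alternatives used DESeq2 1.42.0 and limma 3.58.1. The scripts were tested on simulated data. Members with full values were those called with an age change of 1 log2 unit or more, those with an allele difference in 1 direction at all ages of mean size 0.5 or more, and those with a called parental or cross effect.

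Values of some genes are not reported here, though counts over all members include them. The members, lists and tests were chosen with earlier results of these data known. The GC correction, the omission of adult F1i library 1_1 and the fits by adult second number were chosen after seeing the data. Nothing in the labels says that libraries come from separate animals, so p-values set differences against the spread between these libraries, which may not be that between animals. With adult counts summed over the first number, 29 of the 30 members called between adults and P15 kept the call. Between adults and P5, 35 of 36 kept it. Replicate numbers were not taken to pair the samples, since not every pair of same-numbered libraries correlated above 0.1. That criterion is no test for a shared block in adults, where the median correlation was 0.24 in same-numbered pairs and −0.09 in other pairs. With the number as a block, 25 of the 30 members called between adults and P15 kept the call. The shares of all genes that kept a call under these settings are not given.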

Additional observations from a re-analysis of the deposited data

Results flagged for a closer look

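In 1 of 18 groups tested, a single library lay far from the others of its group. For Gabra5 the CAST share in P5 F1i libraries was lowest in library 1, at 42.74%, against 45.29 to 46.78% in the other 6. By chance about 1 in 20 groups would show such a gap. The F1r libraries at P5 were all above 50%, so this library does not decide whether the crosses overlapped.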

How the results depend on the processing

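Smaller age changes depended on scaling. Between P15 and P5, the GC correction gave Gabra4 −0.101, Gabrb1 −0.082, Gabrg1 −0.024, Grik2 −0.146, Grin1 0.073 and Grin1os 0.074, and pan-neuronal scaling Grm8 0.064, each of opposite sign. Between adults and P15, signs turned with the GC correction for Gabra4 (0.003), Gabrg1 (0.006), Glra3 (0.014), Grik5 (−0.039) and Grm5 (0.021), with adults of second number 1 alone for Gabra4 (0.001), Grik5 (−0.039) and Grm2 (−0.049), and with pan-neuronal scaling for Gabra5 (−0.12), Gabrb1 (−0.14), Grik4 (−0.05), Grik5 (−0.11) and Grm4 (−0.005). Between adults and P5 they turned with the GC correction for Gabrg1 (−0.018) and Grin1 (0.22). The cause was not tested.

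Among values of single members under the alternatives, 1383 kept direction and call, 69 kept direction and lost the call, and the 22 above turned. DESeq2 called 4, 12 and 3 genes for the age by cross interaction (P15 vs P5, adults vs P15, adults vs P5; main 2, 5 and 0), 53 for the adult cross effect (main 15), 4267 for the P5 allele difference (main 6515), 62 for the P5 parental effect (main 95) and 0 members for the P5 cross effect (main 1, also 0 with the GC correction). The adult cross effect had 55 genes with the GC correction and 306 with counts summed over the first number. With 1 mean share for both crosses, 1 member at P5 and 65, 127 and 65 genes were overdispersed, and without thinning 15, 105 and 144 genes (main 8, 67 and 14). The P5 median of Glra1 over Glra3 was 3.08 with a prior count of 5 (main 3.43).

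With the replicate number as a block, 37, 25 and 38 members were called for age (main 37, 30 and 36), 8 genes for the interaction, 77 for the adult cross effect and 1179 for the change of the allele difference between adults and P15 (main 1883). Shares of all genes called for age with the block are not given, so these member counts are not read as particular to the receptor genes. Same-numbered libraries of the 2 crosses had median correlations of 0.02, −0.11 and 0.24 at P5, P15 and in adults (lowest −0.06, −0.28 and −0.31; highest 0.05, 0.60 and 0.74), and other pairs 0.003, 0.02 and −0.09. Low counts limit Gabrr1, Glra3, Grin2a and Grin2b, with at most 204 reads in any library. Counts of Grm2 were also low, with means of 117, 31.3 and 70.8 reads per library at P5, P15 and in adults. Those of Grin2c were low at P5, with a mean of 38.4 reads.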

Other observations

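The pattern of adult Gria2, with the libraries of second numbers 1, 2 and 3 in separate ranges, was also found for 8 genes that are not receptors: Abhd3, Ankrd13c, Aplp1, Nedd8, Otub1, Qk, Rsbn1l and Stk4. These genes were chosen after their values were seen, and no explanation was tested.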
